A study of Mus musculus with 4 samples.

Results

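Root eGFP cells, smooth muscle cells of neural crest descent from the aortic root, were compared with eGFP cells of the same descent from the ascending aorta across all genes. Members were chosen from the Root and Asc-GFP matrices by 7 limits on each barcode. These were at least 1000 detected genes, at most 10% mitochondrial unique molecular identifiers (UMIs, one per captured transcript molecule), at least 10 Myh11 UMIs, at most 5 UMIs of C1qa, C1qb and Lyz2 together, at most 1 of Cdh5 and Emcn together, at least 8 eGFP UMIs and at most 1 tdTomato UMI. They left 570 Root and 6136 Asc-GFP cells, 6706 of the 29930 barcodes of the series. The values of Myh11, eGFP, tdTomato and the macrophage and endothelial genes therefore chose the cells and are not results.

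All libraries came from mice 12 weeks of age that carried Wnt1-Cre2 and the mT/mG reporter, and no other allele or treatment is named in the labels. Wnt1-Cre2 is a recombinase transgene active in the neural crest, and mT/mG switches a cell that recombines, with its progeny, from membrane tdTomato to membrane eGFP. Cells were released in the cold, sorted as ITGA8-positive, a surface integrin of smooth muscle, and counted from the 3′ ends of their transcripts. There was 1 library per segment and colour, so no test between groups was possible. The labels give neither the number nor the sex of the animals behind a library. Intervals below are exact 95% intervals that cover counting error only and hold no spread between animals.

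Neural crest cells leave the dorsal neural tube, reach the outflow tract of the heart through the pharyngeal arches and form much of the smooth muscle of the ascending aorta and arch. Smooth muscle of the root comes largely from the second heart field, with a contribution of the crest. Smooth muscle cells of the wall contract through actin and myosin and also lay down elastic fibres, in which elastin is held on a scaffold of microfibrils.

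Both groups were smooth muscle by their markers. The actin Acta2 reached 20403 CPM (UMIs of the gene per 1000000 UMIs of the group) in Root eGFP and 23698 CPM in Asc-GFP eGFP cells, and Tagln, the actin-binding transgelin, at 13795 and 11908 CPM. None of 12 smooth muscle markers differed by a log2 ratio of 0.5. Cells were sorted on ITGA8, whose gene is among the 12, and chosen on Myh11, so a smooth muscle identity was in part built in. Median depth was 12848.5 UMIs per Root cell and 13177.5 per Asc-GFP cell, over 7631903 and 82790760 UMIs in all. The mitochondrial share had medians of 5.21% and 5.08%. Markers of other cell types stood far below these. The rule limited macrophage and endothelial genes, so low sums of these markers were in part built in too. Macrophage and leukocyte markers summed to 7.86 CPM in Root eGFP and 1.94 in Asc-GFP eGFP cells (3 and 2 of 12 at 0), cardiomyocyte markers to 9.04 and 4.23 (2 of 10 at 0 in each), Schwann and melanocyte markers to 5.24 and 3.26 (7 and 4 of 11 at 0). Endothelial markers summed to 198 and 238 CPM, mesothelial markers to 26.1 and 46.8, pericyte markers to 533 and 681, and fibroblast markers to 744 and 708. Within the fibroblast list 5 of 7 measured markers were higher in Root eGFP cells, and Pdgfra, which defines fibroblasts, stood at 5.77 against 5.12 CPM.

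The thresholds passed through sparse parts of both groups. In Root, 7 cells lay just inside the eGFP limit (8 to 11 UMIs) and 9 just outside it (4 to 7). In Asc-GFP the counts were 92 and 53. For Myh11, 7 Root cells held 10 to 14 UMIs and 2 held 5 to 9, against 220 and 120 in Asc-GFP. The tdTomato limit removed a further 32 Root cells, whose median depth was 23200 UMIs, and 66 of the 570 kept cells held 1 tdTomato UMI. The Root and Asc-GFP files shared 17 barcodes, none of them in both groups of cells.

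The makeup of the groups by sex differed, and it bears on every value below. Cells with Xist and no Y-linked UMI were counted as female and the reverse as male, so female and male cells of a library came from different mice. Root eGFP cells were 475 female and 64 male (88.1% female, 85.1 to 90.7%) and Asc-GFP eGFP cells 3547 female and 1532 male (69.8%, 68.6 to 71.1%). Cells with UMIs of both kinds made up 1.05% and 9.66%. The 64 male Root cells stood apart, with Corin, Thbs1 and Pgam2 far above the female Root cells and Mfap5, Sfrp2 and Rgs5 well below them. Values within each sex are therefore given beside the pooled ones for the genes described most fully, and the part that sex or single animals play in the pooled values was not tested.

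A level of 20 CPM or more in either group was reached by 5822 genes, of which 35 (0.601%) were at least 2-fold higher in Root eGFP cells and 30 (0.515%) at least 2-fold lower, with an interval that left out 0. The median log2 ratio of the 5822 genes was -0.01. The ratios of Pgam2, Corin and Thbs1 were the highest of the 35, which also held troponin T, phospholamban and the Wnt antagonist Sfrp1. Rgs5, the Wnt antagonist Sfrp2 and Gm26771 were the lowest of the 30, which also held the microfibril genes Mfap5 and Mfap4, and 2 of them, Ddx3y and Eif2s3y, are Y-linked.

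**Figure D1:**
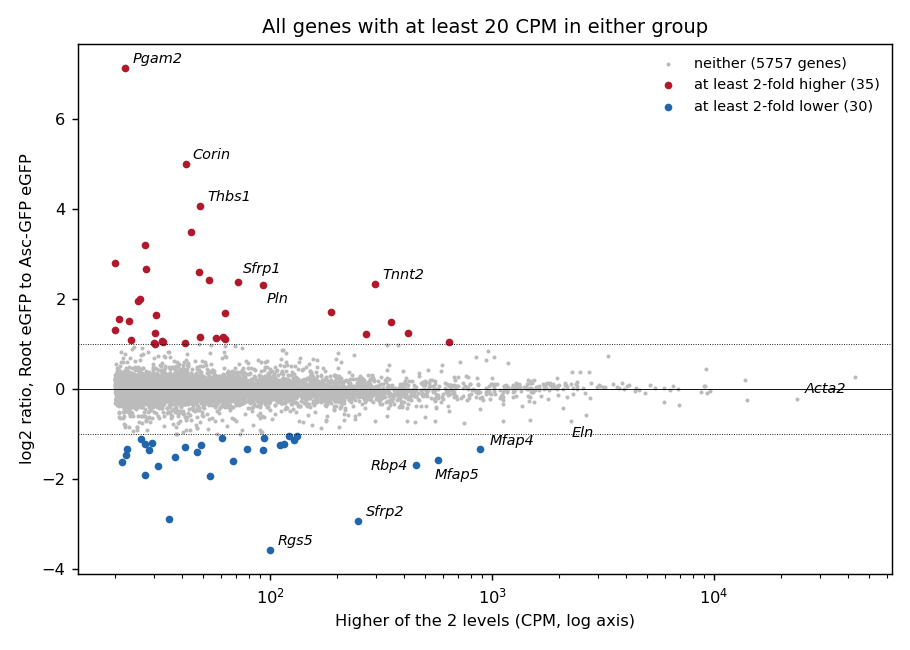
Each point is 1 of 5822 genes reaching 20 CPM in either group, by its higher CPM (x, log axis) and the log2 ratio of Root eGFP to Asc-GFP eGFP cells (y). The 35 genes higher and 30 lower by at least 2-fold are coloured and stand off a dense band around 0, with Pgam2 at the top and Rgs5 at the bottom.

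The female cells called 18 of the 35 higher genes by the same rule, the male cells 29, and both 15. Of the 30 lower genes they called 25, 27 and 24. These cells are part of the pooled cells that gave the 35 and 30 genes, so shared calls are in part built in. The median log2 ratio of the 35 was 1.45 between female and 2.54 between male cells, and for the 28 lower genes that are not Y-linked -1.20 and -2.83. The ratio was further from 0 between male cells for 28 of the 35 and for all 28. Over all genes at 20 CPM or more, 19 were higher and 30 lower between female cells and 195 higher and 213 lower between male cells, which rest on 64 Root cells and 795852 UMIs.

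**Figure D2:**
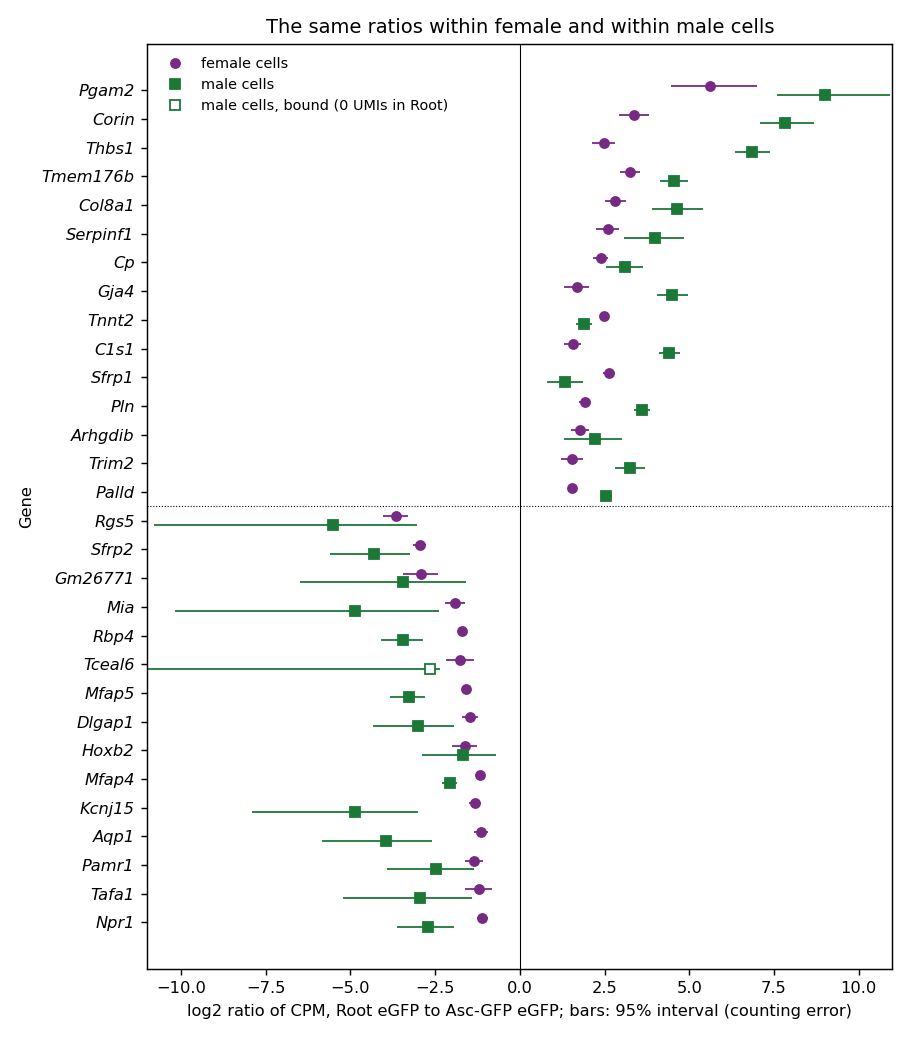
Log2 ratio of CPM, Root eGFP to Asc-GFP eGFP cells (x), of the 15 highest and 15 lowest genes (y), within female cells (circles) and within male cells (squares, open where the male Root cells held 0 UMIs and the value is a bound), with intervals for counting error. Every value keeps its side of 0, and the male value lies further out for all but Tnnt2 and Sfrp1. The genes were ranked on the pooled cells, which include these, so the shared side is in part built in.

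The base sequence before the start of 5 of these genes is shown, 1 or 2 for each of the cardiac muscle, natriuretic, contraction and Wnt results below, so that they can be read beside their values. They were chosen for these results and are not the 5 largest ratios. The 250 bases upstream of each start come from RefSeq on GRCm38.p6 (mm10), 5′ to 3′ on the gene's strand, and capitals mark motif matches on either strand, written as they stand on the gene's strand. The motif CATTCC, which TEAD factors bind, was found in 12.6% of all 32851 promoter entries of equal length. AGATAA, which factors of the family of Gata4 bind, was found in 9.99%. The motifs did not overlap in the 5 sequences. TGANTCA (AP-1 factors, 6.75% of entries) and the CArG box of serum response factor (1.47%) were also searched and had no match in the 5, which says only that these letters are not in these windows. Positions count back from the base before the start, at -1. Of 31 named genes 23 had an entry, and of these 23 entries 3 held CATTCC, 5 AGATAA, 2 TGANTCA and 0 a CArG box. Tnnt2 (chr1:135836084-135836333, + strand) holds a CATTCC match from -27 and an AGATAA match from -166, Pln (chr10:53337436-53337685, +) and Rgs5 (chr1:169655251-169655500, +) an AGATAA match from -183 and from -238, and Corin (chr5:72504541-72504790, −) and Sfrp2 (chr3:83766071-83766320, +) none. A match describes the sequence and no binding was measured.
Tnnt2: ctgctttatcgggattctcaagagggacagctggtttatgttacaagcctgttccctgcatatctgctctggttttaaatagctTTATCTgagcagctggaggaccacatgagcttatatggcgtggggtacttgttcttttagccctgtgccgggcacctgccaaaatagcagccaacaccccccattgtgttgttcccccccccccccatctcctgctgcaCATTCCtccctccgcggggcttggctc
Pln: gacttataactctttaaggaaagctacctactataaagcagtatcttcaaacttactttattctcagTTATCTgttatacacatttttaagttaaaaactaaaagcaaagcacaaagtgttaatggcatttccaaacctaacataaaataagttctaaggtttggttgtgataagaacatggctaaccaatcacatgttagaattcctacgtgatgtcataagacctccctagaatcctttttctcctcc
Corin: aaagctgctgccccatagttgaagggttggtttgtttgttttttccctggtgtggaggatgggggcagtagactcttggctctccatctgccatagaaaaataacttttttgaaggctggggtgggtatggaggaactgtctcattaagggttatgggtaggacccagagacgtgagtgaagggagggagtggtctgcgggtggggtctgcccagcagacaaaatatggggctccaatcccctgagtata
Rgs5: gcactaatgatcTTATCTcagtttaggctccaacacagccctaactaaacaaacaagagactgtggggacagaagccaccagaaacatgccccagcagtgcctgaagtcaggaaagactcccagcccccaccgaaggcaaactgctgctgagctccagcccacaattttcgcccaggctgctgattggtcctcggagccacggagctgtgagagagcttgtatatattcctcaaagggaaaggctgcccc
Sfrp2: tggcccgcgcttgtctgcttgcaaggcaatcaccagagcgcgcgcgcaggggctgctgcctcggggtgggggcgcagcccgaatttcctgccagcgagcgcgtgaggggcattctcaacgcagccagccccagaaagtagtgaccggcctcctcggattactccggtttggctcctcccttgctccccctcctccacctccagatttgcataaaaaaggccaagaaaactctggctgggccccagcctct

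The cardiac muscle genes of the comparison come first. Tnnt2, cardiac troponin T, the thin-filament protein that ties the calcium switch to tropomyosin, stood at 296 CPM (284 to 308) in Root eGFP cells and 58.8 CPM (57.2 to 60.5) in Asc-GFP eGFP cells, a log2 ratio of 2.33 (2.26 to 2.40). By sex it was 309 and 235 CPM in female and male Root cells and 55.1 and 62.9 in female and male Asc-GFP cells. In cells of the other descent, under the same limits but with at least 1 tdTomato and at most 1 eGFP UMI, Tnnt2 reached 1020 CPM in Root tdTomato and 338 in Asc-RFP tdTomato cells, and in Arch-GFP eGFP cells 19.4 CPM. After each cell was thinned to 5000 UMIs, 40.9% of 565 Root cells (36.8 to 45.1%) and 15.6% of 5849 Asc-GFP cells (14.7 to 16.5%) held a Tnnt2 UMI, and 17.9% and 2.63% held 3 or more. Without thinning the shares with a UMI were 57.4% and 25.5%. In 45 Root macrophages, cells with at least 50 UMIs of C1qa, C1qb and Lyz2 and a median of 11083 UMIs before thinning, the share was 6.67%. It is a rough guide to free RNA only, as it rests on 45 cells and no interval is given. The part of free RNA, also from the Root tdTomato cells, in the Root eGFP values was not tested.

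Pln, phospholamban, the brake on the calcium pump of the sarcoplasmic reticulum, stood at 92.8 CPM in Root eGFP and 18.7 CPM in Asc-GFP eGFP cells (log2 2.31, 2.18 to 2.44). It was 63.8 and 270 CPM in female and male Root cells and 16.9 and 22.0 in female and male Asc-GFP cells. Of 8 measured genes of a cardiac troponin and sarcomere list, 2 were higher at a log2 ratio of at least 0.5 (Tnnt2 and Ankrd1, a muscle stress-response protein, 48.2 against 21.5 CPM), 1 was lower (Actn2, the sarcomeric alpha-actinin, 7.73 against 13.3 CPM) and the list median was 0.38. Over all 9739 genes with at least 5 CPM in either group, the measure used for lists, 364 (3.74%) were higher, 378 (3.88%) lower and the median was -0.01. Every list count below is to be read beside these shares.

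The contractile apparatus itself stood at like levels. Of 29 measured contractile genes 3 were higher and none lower (median 0.02): Pln, Sorbs2, an adaptor of actin filaments (270 against 115 CPM), and Synm, the intermediate filament protein synemin (74.8 against 39.9 CPM). Sorbs2 was 193 and 726 CPM in female and male Root cells against 118 and 111. Palld, palladin, which cross-links actin, was outside that list and stood at 189 against 57.4 CPM (log2 1.72, 1.63 to 1.80, with 1.53 and 2.55 within female and male cells). Among 23 regulators of contraction, Prkg1, the cGMP-dependent kinase, and Gucy1a1, a subunit of the nitric oxide receptor, were higher (112 against 70.6 and 713 against 467 CPM), and Rgs5, Rgs4 and Rgs2 lower. Rgs2 turned direction with sex, with a log2 ratio of -1.37 between female and 1.14 between male cells.

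**Figure D3:**
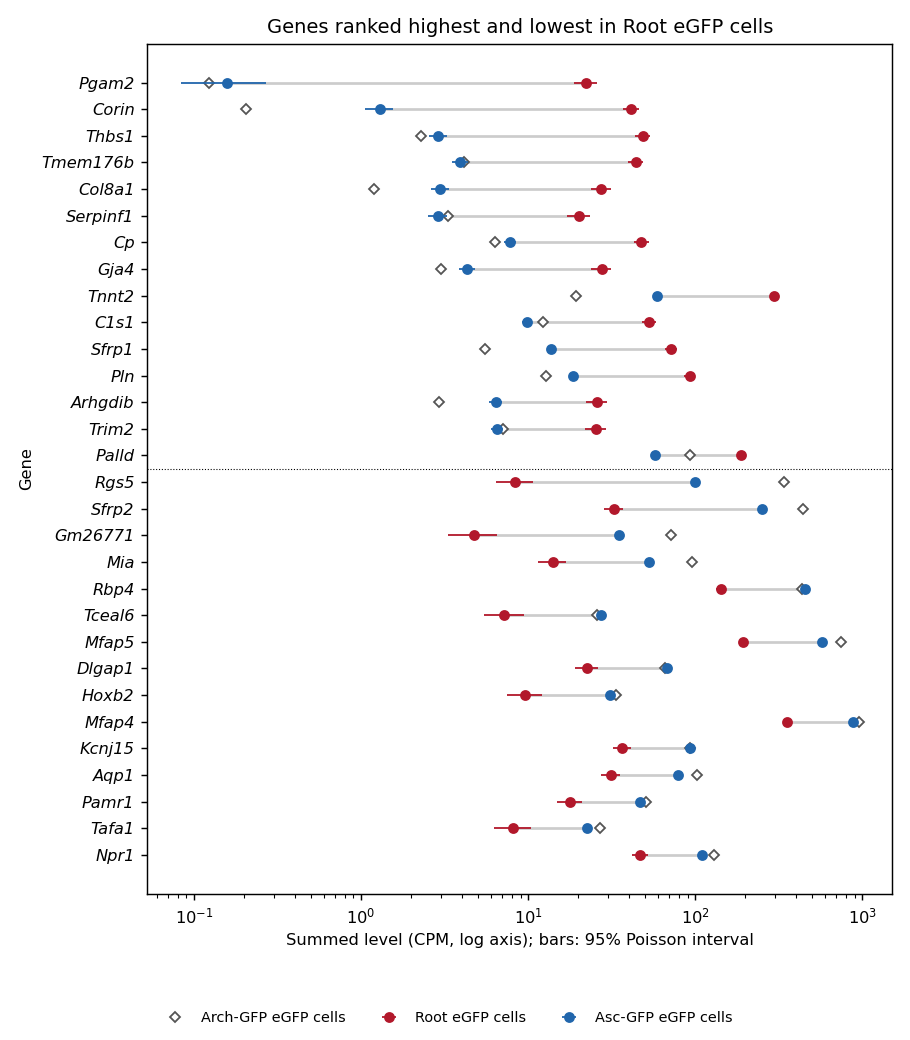
CPM (x, log axis) of the 15 highest and 15 lowest genes of the comparison (y) in Root eGFP, Asc-GFP eGFP and Arch-GFP eGFP cells, 1 library per group, with exact Poisson intervals for counting error on the first 2 groups. For Tnnt2 the values are 296, 58.8 and 19.4 CPM and for Sfrp2 32.5, 250 and 443 CPM.

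Corin, a serine protease that cleaves the precursor of atrial natriuretic peptide, and Npr1, the receptor that this peptide activates, differed in opposite directions. Corin stood at 41.5 CPM (37.1 to 46.4) in Root eGFP and 1.29 CPM (1.06 to 1.56) in Asc-GFP eGFP cells, a log2 ratio of 5.01 (4.69 to 5.34). It was 16.2 and 177 CPM in female and male Root cells and 1.57 and 0.777 in female and male Asc-GFP cells. The male Root value lay far above the female one. Root tdTomato cells had 51.1 CPM (39.4 female, 126 male), Asc-RFP tdTomato cells 2.10 and Arch-GFP eGFP cells 0.205. Thinned, 11.3% of Root eGFP cells (8.83 to 14.2%) and 0.547% of Asc-GFP cells held a Corin UMI (16.8% and 1.29% unthinned), so the transcript was seen in a minority of Root cells. The share was 2.22% of 45 Root macrophages, too few cells to set the level of free RNA. Npr1 stood at 46.8 against 111 CPM (log2 -1.24, -1.40 to -1.09), with 52.4 and 16.3 in female and male Root cells and 113 and 107 in Asc-GFP cells. Of 14 measured vasoactive receptors and related genes 3 were higher, Corin, Adrb1 and Ednra, and 3 lower, Npr1, Edn1 and Htr2a. Ednra, an endothelin receptor, was higher between male cells alone (female log2 -0.15, male 3.18).

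Pgam2 (chr11:5801640-5803733, −), the muscle form of the glycolytic enzyme phosphoglycerate mutase, had the largest ratio, with 22.1 CPM (18.9 to 25.7) in Root eGFP and 0.157 CPM (0.0836 to 0.269) in Asc-GFP eGFP cells (log2 7.14, 6.33 to 8.08). Female and male Root cells had 7.09 and 100.5 CPM, and female and male Asc-GFP cells 0.145 and 0.194. It was held by few cells, 6.55% of Root and 0.0684% of Asc-GFP cells after thinning (10% and 0.212% before) and 0 of the 45 Root macrophages, which allows a share of up to 6.67%. Thbs1 (chr2:118111876-118127133, +), thrombospondin, a matrix protein that activates latent TGF-beta, stood at 48.5 against 2.89 CPM (log2 4.07, 3.83 to 4.31). Its values were 21.1 and 220 CPM in female and male Root cells and 3.81 and 1.89 in Asc-GFP cells, and 7.96% and 0.479% of thinned cells held it (12.3% and 0.994% unthinned). In Asc-GFP a single thinned cell held as many as 24 Thbs1 UMIs. Root tdTomato cells had 25.03 CPM and Asc-RFP tdTomato cells 10.6.

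**Figure D4:**
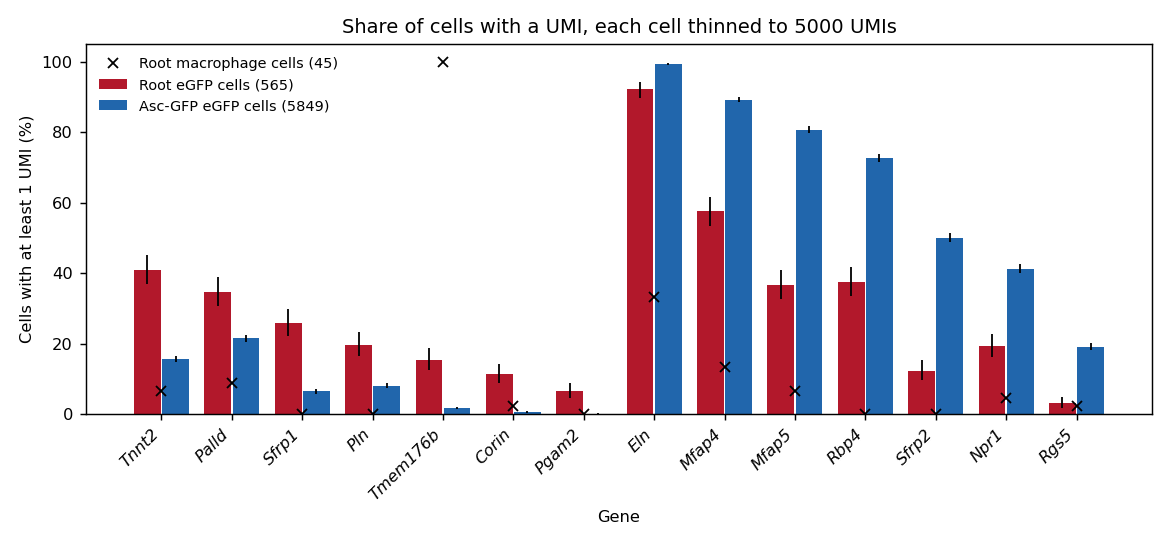
Percent of cells with at least 1 UMI of each gene after thinning every cell to 5000 UMIs, in Root eGFP (565), Asc-GFP eGFP (5849) and Root macrophage (45, crosses) cells, with exact binomial intervals on the bars. Tnnt2 was seen in 40.9% of Root and 15.6% of Asc-GFP cells and Mfap5 in 36.6% and 80.7%, while Pgam2 and Corin were held by at most 11.3% of Root cells.

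Several other genes of the higher set encode secreted or matrix proteins. Col8a1, a short-chain collagen of vessel walls, stood at 27.4 against 2.98 CPM (log2 3.20, 2.93 to 3.47), with 25.9 and 39.0 in female and male Root cells and 3.69 and 1.55 in Asc-GFP cells. Serpinf1, a secreted serpin that inhibits vessel growth, was 20.05 against 2.87 CPM, and Cp, the ferroxidase ceruloplasmin, 47.7 against 7.80 CPM. C1s1 and C1ra, the proteases of the first complement component, were 53.1 against 9.82 and 23.1 against 8.08 CPM; their genes lie 6902 bases apart on chromosome 6. Of 14 measured chemokine, complement and adhesion genes 7 were higher and 1, the adhesion protein Ncam1 (341 against 555 CPM), was lower (median 0.42). Gja4, a gap junction connexin, stood at 27.5 against 4.31 CPM, and Trim2, a ubiquitin ligase, at 25.4 against 6.52 CPM. The log2 ratios of Col8a1, Serpinf1, Cp, C1s1, C1ra, Gja4 and Trim2 were above 0 within each sex, from 0.96 for C1ra between female cells to 4.65 for Col8a1 between male cells.

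Some higher genes are strongly expressed by the macrophages of the Root library. Tmem176b, a membrane protein abundant in myeloid cells, was 44.0 against 3.91 CPM, Arhgdib, a signalling regulator abundant in blood cells, 25.8 against 6.40, and Apoe, the lipid carrier, 416 against 176. Their log2 ratios were 3.24, 1.76 and 1.13 within female and 4.55, 2.21 and 1.93 within male cells. Root macrophages had 899, 697 and 24634 CPM of the 3, and 44.4 of Serpinf1 and 128 of Cp. In cells with no UMI of the 5 macrophage and endothelial genes of the rule (488 Root and 6113 Asc-GFP cells) the log2 ratios of Tmem176b and Arhgdib were 3.37 and 2.01, against 3.49 and 2.01 in all cells. Corin, Thbs1, Pgam2 and Tnnt2, by contrast, stood at 3.55, 0, 0 and 17.8 CPM in Root macrophages. The part of free RNA in the values of the macrophage genes was not tested.

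Of 7 measured fibroblast markers Lum, Dcn, Cd34, Col14a1 and Serpinf1 were higher in Root eGFP cells and 2 were neither higher nor lower. Lum, the proteoglycan lumican, stood at 7.21 against 1.64 CPM, Dcn, decorin, at 26.7 against 15.6 and Cd34, a surface sialomucin, at 18.1 against 4.83. Smoc2, under 5 CPM in both groups, went the other way (0.786 against 2.39 CPM). Tcf21, Dpt and Pi16 were at 0.92 CPM or less in both groups. Among cells with no UMI of Pdgfra, Lum, Dcn, Cd34 and Serpinf1 (372 Root and 4984 Asc-GFP cells, a restriction chosen after the data were seen), the log2 ratios of Corin, Thbs1 and Tnnt2 were 5.52, 4.90 and 2.01 and those of Sfrp2 and Mfap5 -2.84 and -1.62. For Cp the ratio there was 1.98, against 2.61 in all cells. Of the genes followed under this restriction, 30 moved by more than their counting interval and 1 changed sign, and the part of these cells in the differences was not tested.

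The secreted Wnt antagonists, which bind Wnt ligands or their receptors outside the cell, differed in both directions. Sfrp1 stood at 71.4 CPM (65.5 to 77.7) in Root eGFP and 13.7 CPM (12.9 to 14.5) in Asc-GFP eGFP cells, and Sfrp2 at 32.5 CPM (28.6 to 36.8) and 250 CPM (246 to 253). The log2 ratios were 2.38 (2.23 to 2.53) and -2.94 (-3.13 to -2.76). Sfrp1 was 76.3 and 42.7 CPM in female and male Root cells and 12.2 and 16.8 in Asc-GFP cells, and Sfrp2 37.0 and 8.80 against 287 and 173. Sfrp2 was held by 12.2% of Root cells (9.63 to 15.2%) and 50.04% of Asc-GFP cells (48.8 to 51.3%) after thinning, and by 21.4% and 69.8% before it, with 0 of 45 thinned Root macrophages. It was 443 CPM in Arch-GFP eGFP, 37.0 in Root tdTomato and 146 in Asc-RFP tdTomato cells. Wif1 and Dkk3 were lower in Root eGFP cells (114 against 204 and 149 against 223 CPM), and Igfbp4, Apcdd1 and Frzb higher, so 4 of 8 measured antagonists were higher and 3 lower. Gm26771, an antisense transcript whose last 464 bases overlap the end of Sfrp2, stood at 4.72 against 35.004 CPM. Without a stated strand setting its UMIs cannot be told apart from those of Sfrp2.

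Genes of other signalling pathways differed in both directions, beside 3.74% higher and 3.88% lower over all genes measured for lists. Of 22 Wnt ligands, receptors and targets 4 were higher, among them the target Ccn4 (7.21 against 0.870 CPM) and the ligand Wnt16 (209 against 138 CPM), and 2 lower. Of 26 TGF-beta genes 5 were higher, led by Thbs1, and 1, the activin antagonist Fst, was lower (median 0.09). Among 20 BMP genes 2 were higher and 5 lower, with Bmp2 at 34.9 against 19.7 CPM and Bmp3 at 20.6 against 48.6 CPM. The receptors Notch1 and Notch3 were higher (9.43 against 4.82 and 47.6 against 23.9 CPM), 2 of 8 Notch genes. Of 7 genes of the IGF system Igfbp2, Igfbp4 and Igfbp5, binding proteins that hold the growth factor, were higher. Wnt16 and Igfbp2 were lower between male cells (log2 -0.93 and -0.72), and Igfbp5 stood at -0.076 between female cells. Guidance genes split evenly, with 4 of 23 higher, Unc5b and Epha7 at the top, and 4 lower, Sema3c the furthest (44.2 against 93.4 CPM).

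The elastic fibre genes that passed the list limits were all lower in Root eGFP cells. Of 19 measured members 6 were lower, none higher and 13 neither (median -0.27, and -0.32 and -0.49 within female and male cells). Mfap5 (chr6:122505845-122529290 on mm10, + strand), a glycoprotein of microfibrils, stood at 193 CPM (183 to 203) in Root and 572 CPM (567 to 577) in Asc-GFP eGFP cells (log2 -1.57, -1.64 to -1.49), and Mfap4, which binds elastin and fibrillin, at 354 and 883 CPM (log2 -1.32, -1.38 to -1.26, with -1.19 and -2.08 within female and male cells). Mfap5 was 220 and 41.5 CPM in female and male Root cells and 656 and 403 in Asc-GFP cells. Eln (chr5:134702593-134747323, −), elastin, was 1396 against 2272 CPM (log2 -0.70, -0.73 to -0.67), with 1495 and 906 in female and male Root cells and 2374 and 2090 in Asc-GFP cells. A Mfap5 UMI was found in 36.6% of Root and 80.7% of Asc-GFP cells after thinning (50.5% and 92.9% before, 6.67% of Root macrophages), and the median cell held 5 Eln UMIs in Root and 10 in Asc-GFP. Loxl3, a cross-linking oxidase, Ltbp2 and Fbln2 were the other 3, with Fbln2 near the list minimum (3.67 against 5.41 CPM). In tdTomato cells Eln was 1205 CPM in Root and 1669 in Asc-RFP, and Mfap5 190 and 425.

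**Figure D5:**
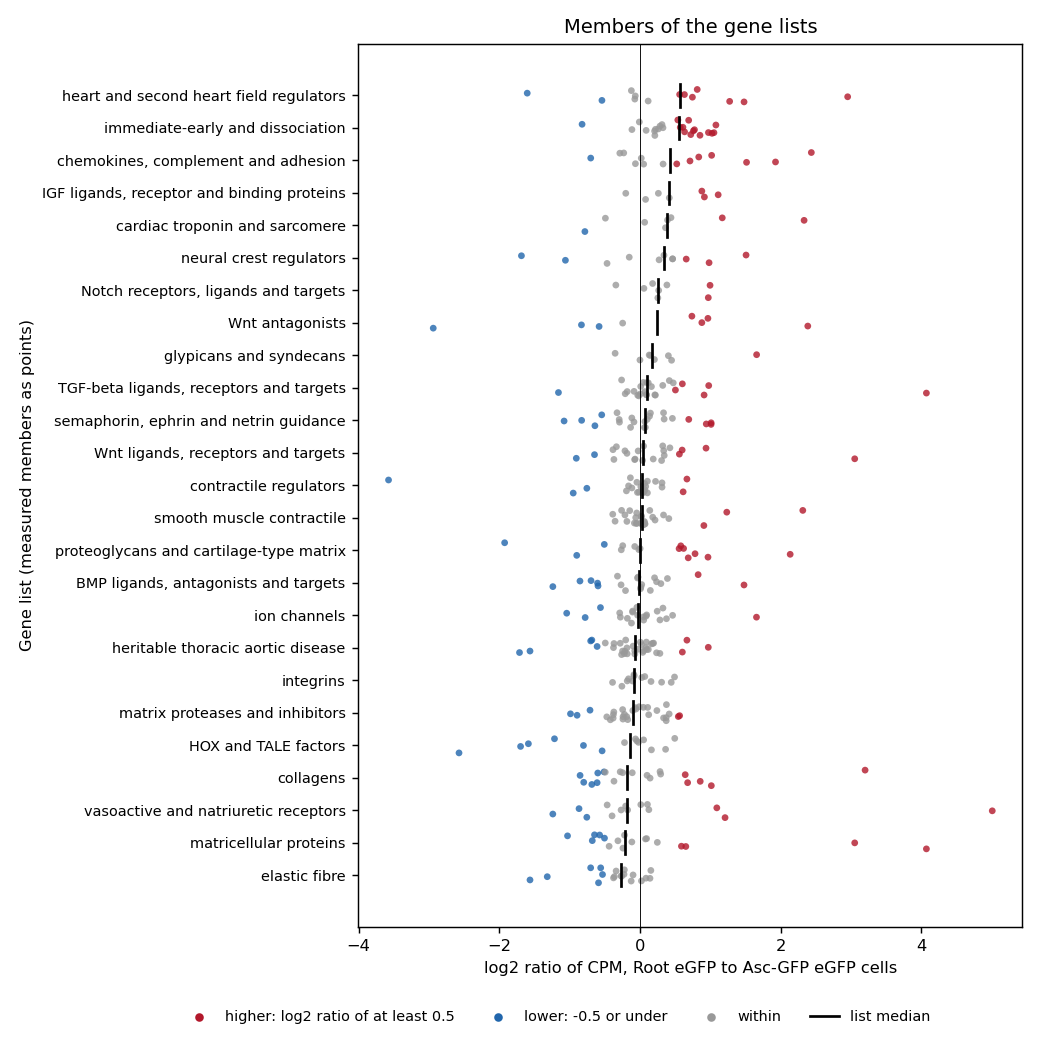
Log2 ratio of CPM, Root eGFP to Asc-GFP eGFP cells, of each measured member of the gene lists (points) with the list median (bar). Elastic fibre and HOX members reach below -0.5 with none above 0.5. Heart regulators and immediate-early genes reach past 0.5 and -0.5, as do other lists such as collagens and BMP genes.

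Collagens split, with 5 of 20 higher and 6 lower (median -0.18). The fibrillar chains Col1a1 and Col1a2 (325 against 496 and 919 against 1479 CPM) and Col6a1 and Col6a2 were lower, and Col8a1 and the basement membrane chains Col4a3 and Col4a4 higher. Of 15 proteoglycan and cartilage-type genes 7 were higher and 3 lower, among them Mia, a small protein secreted by cartilage, at 14.02 against 53.3 CPM and Vcan, versican, at 48.1 against 89.8 CPM. Sparc, which binds collagen, was lower (1773 against 2643 CPM) and the CCN proteins Ccn1 and Ccn3 higher (941 against 600 and 1173 against 781 CPM), within 17 matricellular genes of which 4 were higher and 5 lower. None of 13 measured integrins passed a log2 ratio of 0.5 in either direction. Over all genes measured for lists 3.74% were higher and 3.88% lower, so a count of 0 in so short a list is near these shares. Of 36 genes with variants in heritable thoracic aortic disease 3 were higher and 5 lower, Mfap5 and Eln among the latter.

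Rgs5, which shortens signalling through G proteins and marks pericytes, was the furthest lower, with 8.39 CPM (6.46 to 10.7) in Root eGFP and 100.1 CPM (97.9 to 102) in Asc-GFP eGFP cells (log2 -3.58, -3.95 to -3.22). It was 9.72 and 1.26 CPM in female and male Root cells, the latter a single UMI, and 123 and 57.2 in Asc-GFP cells. In Asc-GFP it was unevenly held, by 19.1% of thinned cells and up to 27 UMIs in 1 cell, against 3.01% of Root cells and 2.22% of Root macrophages (31.4% and 6.84% of eGFP cells unthinned). Arch-GFP eGFP cells had 340 CPM. Rbp4, the carrier of retinol, was 142 against 455 CPM (log2 -1.68, -1.77 to -1.59), with 161 and 28.9 in female and male Root cells and 527 and 314 in Asc-GFP cells. Aqp1, a water channel, was 31.2 against 78.6 CPM and Kcnj15, a potassium channel, 36.6 against 92.7 CPM. The log2 ratio of Aqp1 was -1.15 within female and -3.96 within male cells, and that of Kcnj15 -1.32 and -4.86. Abcc9, the regulatory subunit of vascular potassium channels gated by ATP, was 58.8 against 121 CPM. Among 21 ion channel genes 3 were lower and 1, Kcnk3, higher, beside 3.88% lower and 3.74% higher over all genes measured for lists. Dlgap1, a scaffold of synapses, stood at 22.4 against 67.7 CPM and Tafa1, a secreted protein of the nervous system, at 8.12 against 22.5. Tceal6 and Pamr1 stood at 7.21 against 27.2 and 17.8 against 46.7 CPM.

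The HOX factors that differed stood at low levels, 31.1 CPM or less in both groups. Of 14 measured HOX and TALE factors, which set position along the body axis, 6 were lower and none higher (median -0.14). Hoxb2 stood at 9.57 against 31.1 CPM (log2 -1.70, -2.06 to -1.36) and Hoxb4 at 2.49 against 14.8 CPM (log2 -2.57, -3.31 to -1.93), with Hoxb3, Hoxa3, Hoxa4 and Hoxa5 the others. Hoxb2 was 9.87 and 10.1 CPM in female and male Root cells and 30.3 and 32.2 in Asc-GFP cells. The male Root value rests on few UMIs, so it cannot show whether the sexes were alike. Root tdTomato cells had 18.6 CPM of Hoxb2 and Asc-RFP tdTomato cells 31.2.

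Of 13 regulators of the heart and second heart field 7 were higher and 2 lower (median 0.56, and 0.40 and 0.21 within female and male cells). Over the 8 members at 20 CPM or more in either group the median was 0.02. The other 4 were neither higher nor lower: Gata6 (110 against 116 CPM), Hand2 (98.5 against 107 CPM), Foxc1 and Foxc2. Gata4, a zinc-finger factor of heart muscle, was 15.6 CPM (12.9 to 18.7) against 2.02 CPM (1.72 to 2.35; log2 2.95, 2.60 to 3.30), with 12.5 and 32.7 in female and male Root cells and 1.59 and 2.43 in Asc-GFP cells. It was 13.4 CPM in Root tdTomato, 2.63 in Asc-RFP tdTomato and 0.0205 in Arch-GFP eGFP cells. After thinning 8.496% of Root and 1.08% of Asc-GFP eGFP cells held Gata4 (18.2% and 2.62% before). Of 45 thinned Root macrophages 0 held it, which allows a share of up to 6.67%. The T-box factors Tbx2, Tbx18 and Tbx20 and the nuclear receptors Nr2f1 and Nr2f2 were among the other higher members, and Irx3 and Osr1 were lower. Among 11 measured neural crest regulators Tfap2a, Twist1 and Zeb2 were higher and Prrx2 and Twist2 lower. Tfap2a, an AP-2 factor of the crest, stood at 10.9 against 3.83 CPM and at 0.236 and 0.101 CPM in Root and Asc-RFP tdTomato cells.

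Genes that respond within minutes to stress or dissociation were also higher. Of 24 measured members of an immediate-early list 13 were higher and 1, Ier3, lower (median 0.55, and 0.34 and 0.69 within female and male cells), with Atf3 at 377 against 192 CPM, Jun at 953 against 528 and the heat shock gene Hspa1b at 639 against 309. Per 10000 UMIs their summed level had a median of 46.9 in Root and 36.8 in Asc-GFP cells, 51.1 against 37.5 within female and 35.9 against 34.2 within male cells. In the 200 Root and 3068 Asc-GFP cells at or under 36.8, a restriction chosen after the data were seen, the list median was 0.06. The restriction selects cells on the sum of these same genes, so a smaller list median was built in and is not a result. In these cells the log2 ratios of Tnnt2, Corin, Thbs1, Sfrp2 and Eln were 2.53, 5.26, 5.18, -2.86 and -0.80. Those Root cells were 156 female and 33 male, so male cells made up more of them than of all Root eGFP cells. Of 125 genes followed under this restriction 61 moved by more than their counting interval and 1 changed sign, and the part of the immediate-early state in the differences was not tested.

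Pgam2, Thbs1 and Corin were each held by few cells, so the leading genes were also summed within each cell. These genes were ranked by their difference between these same cells. The direction in which the sums differ was therefore fixed in advance, and only their spread over cells is described. The 15 highest-ranked genes summed to a median of 3 UMIs per thinned Root cell (10th to 90th percentile 0 to 14) and 1 per Asc-GFP cell (0 to 3), and 91 of 565 and 2773 of 5849 cells held none. Tnnt2 alone gave a mean of 1.46 of the mean 5.07 UMIs per Root cell. The 15 lowest-ranked summed to 3 (0 to 10) and 13 (5 to 24), with 98 and 20 cells at 0. The groups overlapped on both sums, and some Root cells lay within the range of Asc-GFP cells. Summed levels over cells do not tell apart more cells with a transcript from more transcript per cell.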

How the data were processed

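Single-cell RNA was counted in 4 libraries. Root held both reporter colours, and Asc-GFP, Asc-RFP and Arch-GFP were named for 1 colour each. The values deposited by the authors are whole UMI counts for each gene in each barcode, written by Cell Ranger 7.0.0 per the file headers. The submitters' processing notes name the build mm10 and Seurat 4.3, and no Seurat output was used. Barcodes numbered 4040 in Root and 8845 in Asc-GFP, and these held 41479646 and 87500240 UMIs. The strand setting is not given in the sources read.

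After the limits given above, UMIs were summed over the cells of each group and divided by their total to give CPM, with Python 3.11.15, numpy 2.4.6 and scipy 1.17.1. Intervals are exact and at 95%: Poisson for a level, conditional binomial for a ratio and Clopper-Pearson for a share. Where 1 group held 0 counts, a floor of 3 took its place and the ratio is a bound. Calls needed 20 CPM in either group, a 2-fold ratio and an interval that left out 0, and lists 5 CPM and a log2 ratio of 0.5. No doublet caller was run. The rule left out eGFP cells with more than 1 tdTomato UMI, but 66 of the 570 Root and 6 of the 6136 Asc-GFP cells kept held 1. An alternative left out cells over 2 times the median UMIs and those with both Xist and Y-linked UMIs. The calculation was tested on simulated counts.

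Named genes were the 15 highest and 15 lowest by the interval bound nearest 0, without mitochondrial, ribosomal protein, Xist, Tsix, Y-linked and rule genes, up to 4 members of each of 25 lists with the largest ratios (members at 20 CPM or more where a list was gone through), and Tnnt2, Sfrp2, Eln and Mfap5. Further genes of a list were named after their values were seen. The members, lists and alternatives were chosen with earlier results of these data known. Some genes that these rules name are left out of the text.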

Additional observations from a re-analysis of the deposited data

Results flagged for a closer look

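Described here are 5 genes whose log2 ratio of Root eGFP to Asc-GFP eGFP cells had opposite signs between female and between male cells. They are not all such genes, as Rgs2 and Ednra above also turned direction. The difference between the sexes was not tested. Igfbp2, an IGF binding protein, had a log2 ratio of 1.85 between female cells (67.5 against 18.7 CPM) and -0.72 between male cells (27.6 against 45.6 CPM). Rspo3, a Wnt agonist, had 1.02 (27.6 against 13.6 CPM) and -1.62 (3.77 against 11.6 CPM), the male Root value resting on 3 UMIs. Wnt16, a Wnt ligand, had 0.70 (234 against 144 CPM) and -0.93 (67.9 against 129 CPM). Aspn, the proteoglycan asporin, had -0.81 (85.9 against 151 CPM) and 0.66 (148 against 93.8 CPM), and Cobll1 had -0.51 (19.6 against 27.9 CPM) and 1.01 (60.3 against 30 CPM). Female and male cells came from different mice, whose number per library the labels do not give, so sex and animal cannot be told apart.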

How the results depend on the processing

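With at least 5 CPM as the minimum, 102 genes were higher and 84 lower, and with at least 50 CPM 13 and 16, by construction from the number of genes tested. Female cells alone gave 19 higher and male cells alone 195 higher and 213 lower; in cells of low immediate-early level, a restriction added after the data were seen, 60 were higher and 55 lower. The cause of these last changes was not tested. Under the other alternatives the counts stayed between 31 and 45 higher and between 27 and 41 lower. Among 125 genes, 7 values changed sign: Ednra -0.15 and Igfbp5 -0.076 (female cells only), Igfbp2 -0.72, Rgs2 1.14 and Rspo3 -1.62 (male cells only), Piezo2 0.25 (low immediate-early level) and Comp -0.32 (no fibroblast marker UMI, also added after the data were seen), and their cause was not tested. No paired analysis was possible because each group is 1 library. At 1 UMI, a male Root level of 1.26 CPM is the smallest that can be seen.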
